A study of Caenorhabditis elegans with 6 samples.

Results

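Broad PHA-4 peaks are the stretches of the *Caenorhabditis elegans* genome over which the authors called a single unbroken binding region of 1200 bp or more in their series-level peak list. Of the 12404 peaks of that list, 543 met this width, or 4.38%, and they held 20.2% of the bases that the list covers. The other 11861 peaks, all of 1198 bp or less, are called narrower peaks below and serve as the comparison. The members were chosen by their width alone, so their widths, and the significance values that come from the same list, are given as a description and not as findings.

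PHA-4, a forkhead transcription factor, is the worm's member of the FoxA family. It specifies the cells of the pharynx, the feeding organ, and acts on pharyngeal genes from the embryo onward, and it is also active in the gut and the somatic gonad. FoxA proteins are known as pioneer factors, which can reach their DNA sites in closed chromatin. In ChIP-seq, a peak spans the fragments pulled down around a binding site, so several sites close together, or a long stretch of bound chromatin, can be called as 1 wide peak.

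All samples were L4 larvae of strain OP37 raised at 20 °C. Their titles name them male, whereas the sex recorded for them is hermaphrodite, a conflict that was not resolved. These worms carry the unc-119(ed3) mutation on chromosome III and the transgene wgIs37, introduced by bombardment, which holds an unc-119 rescue and pha-4 fused to TY1, EGFP and 3xFLAG. The study comprised 3 ChIP libraries, precipitated with an antibody against GFP from worms crosslinked with 2% formaldehyde, and 3 input libraries, which have no peak list among the files analysed here. Each ChIP replicate has its own peak list, and the series-level list stands beside them. The chromatin was of whole worms, so a peak strong in few cells and a peak weak in many cannot be told apart, and the labelled stage could not be checked against marker genes in lists of peaks. Whether the replicates were separate cultures is not stated, so the spread between them may be technical. The sources used here do not say how the series-level list was made from the replicates. If it was called on their pooled reads, the replicate lists are not independent of the rule that chose the broad peaks.

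Most broad peaks were only moderately wide. Their median width was 1581 bp, with quartiles of 1317.5 and 2178.5 bp, against a median of 314 bp in narrower peaks. Of the 543, 247 were under 1500 bp, 135 were from 1500 to under 2000 bp, 101 from 2000 to under 3000 bp, 47 from 3000 to under 5000 bp, and 13 were of 5000 bp or more. Width went with rank by significance value. The median rank in the list was 785 in the first of these classes, 360 in the second, 188 in the next, 68 in the fourth and 8 in the last. All of the 10 best-ranked peaks of the list were broad, as were 83 of the 100 best and 444 of the 1240 peaks of the first decile. The members just inside the limit, the narrowest of them peaks of 1201 bp on chromosome X, and the peaks just outside it, at 1195 to 1198 bp, had similar support. Broad peaks within 100 bp of the limit numbered 118, and 73.7% of them were overlapped by at least 2 replicates. Narrower peaks within 100 bp of it numbered 133, and 66.2% of them were. No sequence or gene annotation of build WS220, on which the peaks were called, was used here, so the regions are named by position and not by gene.

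The widest broad peak stood far apart from the rest. It ran over 34296 bp of chromosome V, from 20740334 to 20774629, close to the right end of the chromosome, and was 4.14 times as wide as the next. Each replicate broke it up differently. Replicate 1 had 3 peaks in it, of 12909, 5238 and 10823 bp, replicate 2 had 2, of 19846 and 5043 bp, and replicate 3 had 5, of 12789, 2990, 989, 2102 and 3019 bp. These covered 84.5%, 72.6% and 63.8% of its bases in replicates 1, 2 and 3. All 3 replicates agreed on 58.9% of its bases, the longest such stretches being 12.7 kb near its left edge and 2.93 kb near its right edge. A stretch of 3.25 kb in between, from 20760477 to 20763725, was called in none of them. No gene was assigned to the region. The part that the pha-4 copies of the transgene wgIs37 have in this or any other peak was not tested.

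Below it the replicates filled the 10 widest peaks to different degrees. Some were covered for the most part in every replicate. On chromosome I from 7078953 to 7085199 (6247 bp), replicate 1 called a single peak of 5924 bp, replicate 2 peaks of 5049 and 970 bp, and replicate 3 peaks of 1319 and 4318 bp, and at least 90.2% of the bases were covered in each replicate. On chromosome V from 723595 to 731741 (8147 bp), the replicates covered 81.8%, 92.8% and 78.7% with 5, 3 and 4 peaks. On chromosome II from 9616848 to 9622312 (5465 bp), each replicate had 3 peaks, which covered 86.6%, 87.8% and 73.3%.

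Others were covered less completely. The second-widest, 8292 bp of chromosome IV from 12197086 to 12205377, held 6 peaks of replicate 1, 5 of replicate 2 and 5 of replicate 3. Its widest peaks had 1606 bp in replicate 1 and 1536 bp in replicate 2. None of the 5 in replicate 3 was wider than 538 bp, and together they covered 25.4% of the region, against 63.6% and 59.4% in replicates 1 and 2. It ranked 16 in the series-level list, while the best of its peaks ranked 301, 116 and 641 in replicates 1, 2 and 3. The region from 13388664 to 13395539 on the same chromosome (6876 bp) held 5, 6 and 3 peaks, covering 57.3%, 59.4% and 66.0%. On chromosome I from 8863700 to 8869505 (5806 bp) there were 4, 3 and 2 peaks, covering 73.2%, 49.7% and 52.0%, and on chromosome V from 11530933 to 11536265 (5333 bp) there were 2, 4 and 2, covering 76.7%, 58.6% and 49.1%. The region on chromosome II from 10547598 to 10554892 (7295 bp) was in between, with 5, 2 and 4 peaks over 72.0%, 89.7% and 61.4% of it.

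The remaining member of the 10 widest was missing from replicate 1. It covered 5990 bp of chromosome IV, from 11694635 to 11700624, and ranked 11. Replicate 3 called it almost whole, as a single peak of 5983 bp that ranked 2 there, and replicate 2 called 2 peaks of 4164 and 713 bp, the better of which ranked 8. Replicate 1 had 0 peaks in it.

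**Figure D1:**
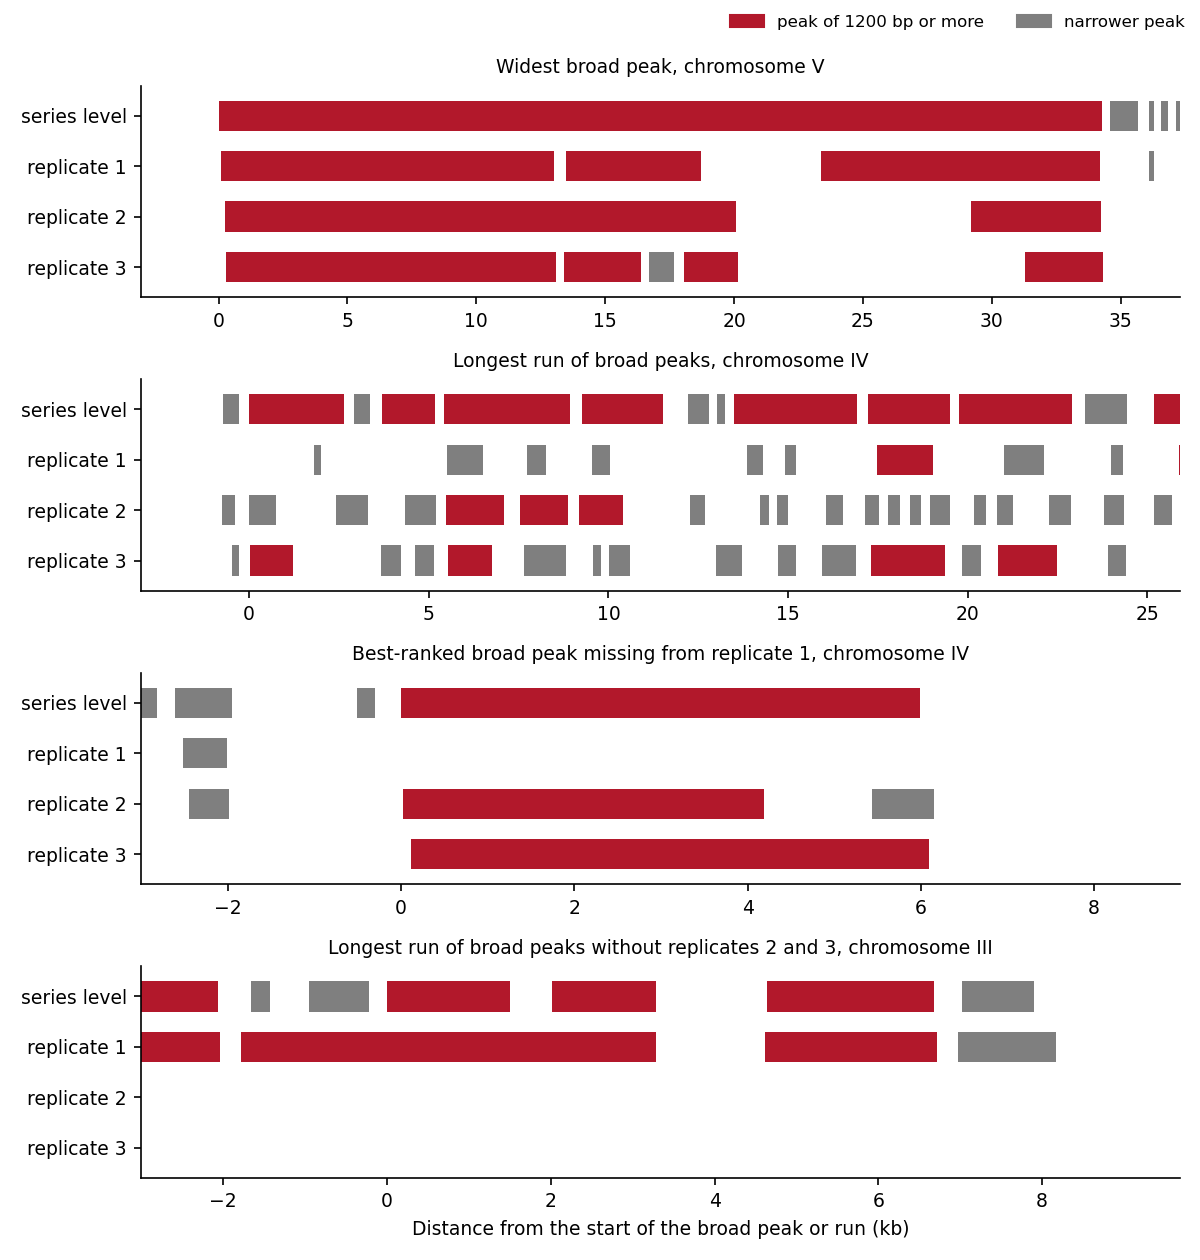
Peaks of the series-level list and of the 3 replicate lists in 4 regions, by distance in kb from the start of the broad peak or run, with peaks of 1200 bp or more in red and narrower ones in grey. The 34296 bp peak on chromosome V is split into 3, 2 and 5 peaks in replicates 1, 2 and 3, the run on chromosome IV is mostly narrow peaks in the replicates, the 5990 bp peak has 0 peaks of replicate 1, and the run on chromosome III has 0 peaks of replicates 2 and 3.

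Among the 5 best-ranked broad peaks outside the 10 widest, 4 were nearly as wide. The exception was the peak ranked 2, on chromosome X from 16929196 to 16932046, at 2851 bp. It had nearly the same extent in replicates 1 and 2, with peaks of 2809 and 2819 bp covering 98.5% and 98.9% of it, while replicate 3 split it into 2 peaks covering 82.7%. The others were on chromosome V (5083 bp from 6220678 to 6225760, and 5170 bp from 6225962 to 6231131), on chromosome II (5155 bp from 10541854 to 10547008) and on chromosome I (4195 bp from 7656304 to 7660498). The 2 on chromosome V are separated by 201 bp, the smallest gap between any peaks of the series-level list, and a single peak of replicate 3, of 4103 bp, bridged them.

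Broad peaks were called in the replicates far more often than narrower ones. Of the 543, 496 were overlapped by at least 1 bp of a peak of replicate 1 (38.1% of all peaks of the list were), 435 by replicate 2 (20.9% of all peaks) and 371 by replicate 3 (14.3% of all peaks). These are 91.3%, 80.1% and 68.3% of the broad peaks, a mean of 79.9 ± 11.5% (SD, n = 3 replicates), against 35.6%, 18.2% and 11.8% of narrower peaks, a mean of 21.9 ± 12.3%. The difference of 58.0 ± 3.4 percentage points was positive in 3 of 3 replicates. An exact two-sided permutation test over the 3 replicates gave p = 0.25, the smallest value that 3 pairs allow, so a p of 0.05 was out of reach. Adjusted by Benjamini-Hochberg over 3 exact permutation tests, this one, that of the first decile and that of the central share of the replicates' wide peaks, it was 0.375. At least 1 replicate overlapped 526 broad peaks (96.9%), against 44.0% of narrower peaks and 46.3% of all peaks. At least 2 replicates overlapped 453 broad peaks (83.4%, 95% exact Clopper-Pearson interval 80.0 to 86.5%), against 15.5% (14.8 to 16.1%) of narrower peaks and 18.4% of all peaks. All 3 replicates overlapped 323 (59.5%), against 6.17% of narrower peaks and 8.51% of all peaks. The intervals cover counting error only, and neighbouring peaks are not independent.

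The gap between broad and narrower peaks depended on rank. In the first decile by significance value, replicates 1, 2 and 3 overlapped 97.3%, 88.7% and 79.1% of the 444 broad peaks and 98.2%, 88.2% and 79.0% of the 796 narrower ones, a mean difference of -0.12 percentage points (exact permutation test, p = 1). In the second decile at least 2 replicates overlapped 31 of 60 broad peaks (51.7%), against 62.5% of 1180 narrower peaks, and in the third decile 4 of 26 (15.4%), against 21.9% of 1215. The broad peaks of these deciles were slightly better ranked, with median ranks of 1764.5 against 1867.5 in the second and 3036.5 against 3102 in the third decile. The differences in these deciles were not tested. Outside the 3 best deciles lay 13 broad peaks, of which 0 were overlapped by 2 replicates or more, against 66 of 8670 narrower peaks (0.76%). Such overlap was rare there at any width.

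An overlap of 1 bp favours wide peaks, and measures that ask for more than an edge gave smaller differences, of 30.2 points for midpoints and 25.1 points for bases. The midpoint of the peak lay inside a peak of replicates 1, 2 and 3 for 59.7%, 50.1% and 41.3% of broad peaks, against 32.8%, 16.8% and 11% of narrower peaks. Per base, the replicates covered 59.0%, 48.6% and 40.0% of broad peaks (49.2 ± 9.5%, SD, n = 3) and 37.3%, 21.1% and 14.0% of narrower peaks (24.1 ± 12.0%). Within the first decile the direction turned. Midpoints were covered for 65.3%, 55.2% and 48.4% of broad peaks, against 91.0%, 82.0% and 74% of narrower ones, lower in 3 of 3 replicates.

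Peaks of the replicates filled a broad peak less completely than a narrower one. The width limit bears on all comparisons of this kind, and on that of midpoints in the first decile. The median peak of replicates 1, 2 and 3 had 375, 445 and 459.5 bp. That is wider than the median narrower peak, at 314 bp, and far below the median broad peak, at 1581 bp. Where a replicate overlapped a broad peak at all, it covered a median of 63.0%, 53.2% and 49.8% of it in replicates 1, 2 and 3, against 83.7%, 77.0% and 75.4% for narrower peaks. Among the 323 broad peaks overlapped by all 3 replicates, 34.9% of the bases were called in all 3, 23.9% in 2, 26.5% in 1 and 14.7% in none. Among the 732 such narrower peaks, 50.8% were called in all 3 and 8.28% in none. In 32 of the 323 broad peaks, and in 15 of the 732 narrower ones, the 3 replicates had no base in common, although each had a peak in the region. Where they had, the shared part had a median of 647 bp, and in 82 broad peaks it fell into 2 or more separate stretches.

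Replicate peaks inside the broad peaks were few. A broad peak overlapped a mean of 1.28 peaks of replicate 1, 1.09 of replicate 2 and 0.88 of replicate 3, with a median of 1 in each. Exactly 1 peak was the most frequent number, in 333, 308 and 283 broad peaks. A replicate broke up a broad peak, with 2 or more peaks in it, in 163 (30.02%), 127 (23.4%) and 88 (16.2%) cases in replicates 1, 2 and 3, against 0.25%, 0.059% and 0.042% of narrower peaks. The width limit bears on this comparison, as peaks of a replicate list lie at least 201 bp apart and the median narrower peak has 314 bp. How much of the difference follows from width was not tested. The highest number was 6, 6 and 5. Counting only replicate peaks that lie wholly inside, 135, 97 and 75 broad peaks held 2 or more. At least 1 replicate broke up 239 broad peaks (44.0%), at least 2 did so for 101, and all 3 for 38. Those broken up by all 3 had a median width of 3594.5 bp, and the other broad peaks 1526 bp. At the other end, 142 broad peaks (26.2%), of median width 1426.5 bp, had exactly 1 peak in every replicate.

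**Figure D2:**
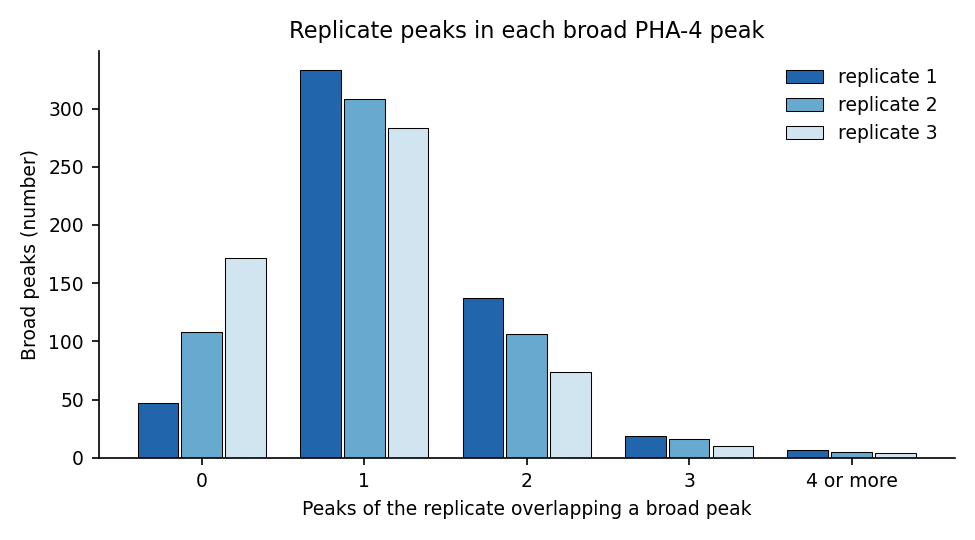
Number of broad peaks (y axis) by the number of peaks of each replicate that overlap them (x axis), with 1 bar per replicate. A single peak is the most frequent number in every replicate, and 163, 127 and 88 broad peaks hold 2 or more in replicates 1, 2 and 3.

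The number per kb depended on how it was counted. By overlap, replicate 1 had 0.64 peaks per kb of broad peak, against 0.99 per kb of narrower peak. Replicates 2 and 3 had 0.55 and 0.44 per kb of broad peak, against 0.51 and 0.33 per kb of narrower peak. Counting only replicate peaks wholly inside, which a narrower peak has less room for, broad peaks had more per kb in all 3, with 0.55, 0.44 and 0.39 in replicates 1, 2 and 3, against 0.54, 0.30 and 0.22 per kb of narrower peak. Replicate 1, the only one whose direction turned, had the longest list, of 5320 peaks, against 2802 and 1900 in replicates 2 and 3, and the part of list length was not tested.

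The width itself was called again in a minority of cases. The widest replicate peak in a broad peak had a median of 878, 850 and 791 bp in replicates 1, 2 and 3, which is 47.8%, 45.1% and 43.5% of the broad peak's width. A replicate peak of 1200 bp or more lay in 150 broad peaks for replicate 1, 108 for replicate 2 and 84 for replicate 3. At least 1 replicate gave such a peak in 227 broad peaks (41.8%), at least 2 in 78 (14.4%) and all 3 in 37 (6.81%). Replicate peaks wider than the broad peak itself occurred in 19, 8 and 3 cases.

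Seen from the replicates, wide peaks nearly always met broad ones. Replicates 1, 2 and 3 had 173, 125 and 99 peaks of 1200 bp or more, or 3.25%, 4.46% and 5.21% of their lists. Of these, 162, 116 and 95 overlapped a broad peak, and 10, 8 and 3 met narrower series-level peaks only. In each replicate exactly 1 had no series-level peak at all. It was the same region each time, near the right end of chromosome I from 15063992 to 15067641, at 3647, 3618 and 3637 bp, and it ranked 1 in every replicate list with a significance value listed as 0. Both other replicates had a peak of any width at 139 of the 173 wide peaks of replicate 1, 105 of 125 of replicate 2 and 94 of 99 of replicate 3. A wide peak in both others was found at only 43, 41 and 45. Such shares are not given here for the narrower replicate peaks, so no difference by width can be read from these counts. The wide peaks also ranked high, with median ranks of 147, 127 and 94 in lists of 5320, 2802 and 1900 peaks. The part of rank in these counts was not tested.

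Where a broad peak was called in all 3 replicates, the best-ranked peaks of different replicates did not always sit at the same place. Their midpoints lay a median of 235.5 bp apart between replicates 1 and 2, 203.5 bp between 1 and 3, and 238.5 bp between 2 and 3, over 323 broad peaks. They were within 200 bp in 45.8%, 49.5% and 44.3%, and more than 1000 bp apart in 32, 26 and 35.

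Each replicate lacked a different set of broad peaks. Replicate 1 lacked 47, of which 12 were called in both others, replicate 2 lacked 108 (28 in both others) and replicate 3 lacked 172 (90 in both others). The missing ones were mostly near the lower end of the width range, with median widths of 1360, 1378.5 and 1405.5 bp. The best-ranked broad peak without replicate 2 ranked 95, on chromosome III from 7541681 to 7544341. It was also missing from replicate 3, while a peak of replicate 1 that ranked 6 covered it whole. It belongs to a group of 6 broad peaks from 7525884 to 7553082, singled out after their values were seen, all covered whole by replicate 1, which had 14 peaks in the stretch, against 0 in replicates 2 and 3. The replicate 1 peaks that covered the 6 broad peaks ranked from 2 to 16 in that replicate. The 6 broad peaks ranked only from 95 to 792 in the series-level list. The best-ranked broad peak without replicate 3 ranked 90, on chromosome IV from 293669 to 297621 (3953 bp), with 2 peaks of replicate 1 and 1 of replicate 2.

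No replicate supported 17 broad peaks (3.13%, 95% exact interval 1.83 to 4.97%), against 56.0% of narrower peaks and 53.7% of all peaks. This contrast, too, depended on rank. In the first decile 2 of 444 broad and 2 of 796 narrower peaks had no replicate. The counts were 2 of 60 and 26 of 1180 in the second decile, and 4 of 26 and 174 of 1215 in the third. The 17 broad peaks ranked from 824 to 9232, with a median of 3743, and were 1219 to 2400 bp wide. The best-ranked were on chromosome V from 10470626 to 10473025 (2400 bp, rank 824), on chromosome IV from 2768808 to 2770445 (1638 bp, rank 865), on chromosome I from 8761299 to 8762755 (1457 bp, rank 2229), on chromosome V from 14132895 to 14134118 (1224 bp, rank 2290) and on chromosome X from 825477 to 827193 (1717 bp, rank 2564). The first of them lay only 264 bp from another broad peak, in a run of 5. Of the 17, 14 had another series-level peak within 2 kb.

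Broad peaks occurred on all 6 chromosomes, and their share of the peaks was highest on X. Chromosome X held 118 of them, 21.7% (95% exact interval 18.3 to 25.4%), against 15.4% (14.7 to 16.0%) of narrower peaks. Chromosome I held 67, 12.3% (9.69 to 15.4%), against 17.9% (17.2 to 18.6%) of narrower peaks. Chromosomes II, III, IV and V held 77, 87, 102 and 92, or 14.2%, 16.0%, 18.8% and 16.9%, against 15.2%, 17.6%, 19.4% and 14.5% of narrower peaks. Put per chromosome, the broad share of the peaks was 3.06% for I, 4% for III, 4.09% for II, 4.25% for IV, 5.06% for V and 6.08% for X. Density ranged from 4.40 broad peaks per Mb on V and 4.45 on I to 6.31 on III and 6.66 on X.

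Some other values of the broad peaks of chromosome X also stood at the end of the range, though none of these differences was tested. Their median width, 1420.5 bp, was the lowest of the 6 chromosomes, whose other medians ran from 1567.5 to 1695 bp. Their median rank of 715 was the worst, the others running from 270 on III to 570 on V. At least 2 replicates overlapped 86 of the 118 (72.9%), against 82.1% on I to 91.2% on IV. The share overlapped by all 3 replicates, 55.1%, was not at the end, lying between 52.2% on I and 68.6% on IV, and the widest broad peak of X, at 4022 bp, was wider than that of III, at 3628 bp. The high share of X lay in the smaller and lower-ranked members. X held 27.5% (22.1 to 33.6%) of the broad peaks under 1500 bp and 15.5% (10.3 to 22.1%) of those of 2000 bp or more, which is no higher than the 15.6% of all peaks under 2000 bp. In the first decile by significance value it held 17.6% of broad peaks, against 15.5% of narrower ones, and in deciles 2 and 3 together 34 of 86 broad peaks (39.5%), against 14.3% of narrower ones. The sample titles carry the word male while the recorded sex is hermaphrodite. The sexes differ in their number of X chromosomes, this conflict was not resolved, and its part in these values was not tested.

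In the replicates' own lists the wide peaks were not concentrated on X. Chromosome X held 15.6%, 18.4% and 18.2% of the peaks of 1200 bp or more (17.4 ± 1.6%, SD, n = 3) and 15.3%, 17.6% and 17.9% of the narrower ones (16.9 ± 1.4%) in replicates 1, 2 and 3. These differ by under 1 point in each replicate, against 6.36 points in the series-level list. Chromosome V, in contrast, held more of the wide than of the narrower peaks in all 3 replicates, with 20.2%, 21.6% and 19.2% against 14.0%, 13.9% and 13.9%. Chromosome III held fewer of the wide peaks in all 3, with 17.3%, 9.6% and 7.07% against 19.1%, 20.1% and 21.2%. The value of replicate 1 includes the stretch on chromosome III that has 0 peaks in replicates 2 and 3. No test across chromosomes was made, since neighbouring peaks are not independent.

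**Figure D3:**
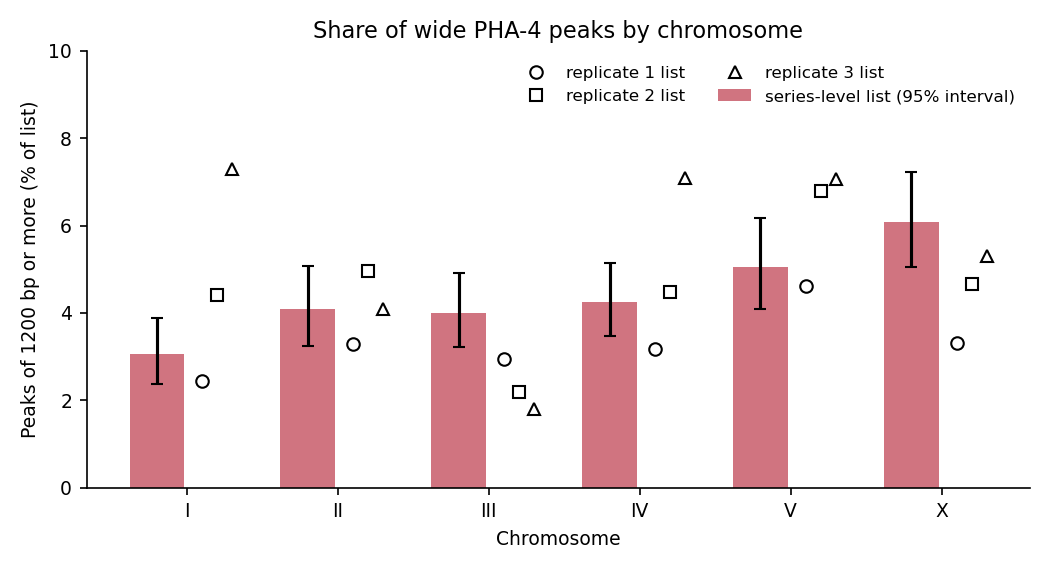
Peaks of 1200 bp or more as a percentage of all peaks on each chromosome (y axis), as bars with 95% exact intervals for the series-level list and as symbols for each replicate list. The series-level share is highest on X, at 6.08%, whereas in replicates 1 and 2 the highest share is on V and in replicate 3 it is on I.

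Broad peaks lay toward the middle of the chromosomes. Of the 543, 352 had their midpoint in the central 50% of the chromosome span (64.8%, 95% exact interval 60.6 to 68.8%), against 54.7% (53.8 to 55.6%) of narrower peaks. The outermost 10% of the span at each end held, both ends summed, 14.4% of broad and 18.5% of narrower peaks. The central share was highest on V, at 73.9%, followed by 71.4% on II, 68.7% on I, 67.8% on III and 63.7% on IV, each above that of the narrower peaks of the same chromosome, which ran from 52.3 to 59.4%. On X it was 50.0%, against 51.6% of narrower peaks. The difference between X and the autosomes was not tested.

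The same direction was found in the replicates' own lists. The central share of peaks of 1200 bp or more was 65.3%, 64.8% and 62.6% in replicates 1, 2 and 3 (64.2 ± 1.4%, SD, n = 3), against 57.1%, 57.9% and 59.6% of narrower peaks (58.2 ± 1.3%). The difference of 6.0 ± 2.7 points was positive in 3 of 3 replicates (exact two-sided permutation test, p = 0.25, the smallest that 3 pairs allow, and 0.375 adjusted over the 3 tests). At a width minimum of 2000 bp it was positive in 2 of 3. In the first decile of the series-level list 67.8% of broad peaks and 59.3% of narrower ones were central.

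**Figure D4:**
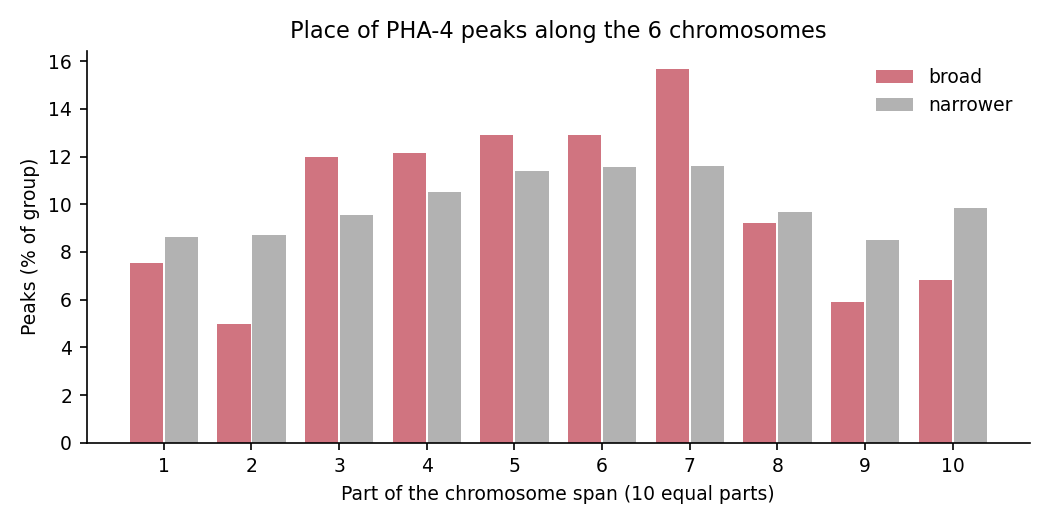
Share of broad (red) and narrower (grey) series-level peaks with their midpoint in each of 10 equal parts of the chromosome span, all 6 chromosomes together (y axis, percent of the group). Broad peaks exceed narrower ones in parts 3 to 7, reaching 15.7% in part 7, and fall below them toward both ends.

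Broad peaks had close neighbours. The nearest other series-level peak lay a median of 580 bp away from a broad peak and 1385 bp away from a narrower one, measured edge to edge. Another peak within 2 kb was found for 471 broad peaks (86.7%, 95% exact interval 83.6 to 89.5%), against 60.4% (59.5 to 61.3%) of narrower peaks. In the first decile the shares were 87.8% and 74.2%. No test was made of this difference.

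Fewer broad peaks had another broad peak beside them. The nearest broad neighbour was a median of 12835 bp away, and 148 broad peaks (27.3%, 23.6 to 31.2%) had one within 2 kb, against 689 narrower peaks (5.81%). No test was made of this difference either, and it is not given by decile. The first decile held 81.8% of broad and 6.71% of narrower peaks. Wide peaks of the replicates' own lists had a wide neighbour within 2 kb in 28.9%, 26.4% and 27.3% of cases in replicates 1, 2 and 3. No share of narrower replicate peaks near a wide one is set beside these. By chromosome the share of broad peaks with a broad neighbour within 2 kb ran from 20.3% on X to 31.0% on III.

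Joined at gaps of up to 2 kb, these 148 formed 61 runs, of which 47 were pairs and 14 held 3 or more broad peaks. In 27 runs every broad peak was overlapped by all 3 replicates. The longest run, on chromosome IV from 3847542 to 3870444 (22.9 kb), held 7 broad and 3 narrower peaks, ranked from 47 to 323 if broad, and 8, 17 and 13 peaks of replicates 1, 2 and 3, which covered 24.7%, 48.2% and 52.2% of it. Replicate 1, which has the longest list, had the fewest peaks there. The longest run on chromosome II, from 10541854 to 10560067 (18.2 kb, 4 broad peaks), was covered for 64.5%, 77.9% and 57.7%. On X it was from 6737543 to 6751362 (13.8 kb, 4 broad peaks), covered for 42.5%, 50.6% and 32.9%. On V it was from 11529329 to 11541947 (12.6 kb, 4 broad peaks), covered for 57.7%, 50.1% and 36.8%. Chromosomes I and III had shorter ones, from 7078953 to 7088029 (9.08 kb, 2 broad peaks) and from 8794160 to 8802853 (8.69 kb, 3 broad peaks). The peak of 34296 bp belonged to no run, as its nearest broad neighbour was 30954 bp away.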

How the data were processed

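The 4 deposited lists hold peaks called with PeakSeq on WormBase WS220, per the file headers and source column. A line gives a position and a significance value between 0 and 0.001, deposited by the authors as a p-value or q-value (the files do not say which). Here it only orders the peaks of a list. The sources used here do not give the aligner, versions, filters or library depth, so depth could not be set against any value. No peaks of the series-level list lie closer than 201 bp, and the rule for joining neighbours is not stated. Overlaps, gaps and exact tests were computed with Python 3.11.15, scipy 1.17.1, numpy 2.4.6 and pandas 2.3.3. Overlap counts equalled those of bedtools 2.31.1 for 3 of 3 replicate lists, and the functions were tested on simulated data. Groups came from the sample titles. Each chromosome was taken to run from base 1 to its last peak in any list. All tests printed in the report were over the 3 replicates, and peaks were never used as replicates. The adjustment covered 3 of them and left out the test of the central share at a width minimum of 2000 bp. The members, the regions named and the tests were chosen with earlier results of these data known. The regions named are the 10 widest broad peaks, the 5 best-ranked of the others, the best-ranked that a replicate or all replicates lack, and the longest run of each chromosome. Alternatives were other widths, overlap definitions, list cuts, gap limits and spans, and each replicate left out.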

Additional observations from a re-analysis of the deposited data

How the results depend on the processing

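The excess of replicate overlap in broad peaks over narrower ones, 58.0 percentage points, stayed positive under all alternatives but 1. It was 30.2 points for midpoints, 28.4 with 50% of the bases covered, 24.3 within the best 3 deciles, 56.1 to 59.2 with 1 replicate left out, and -0.12 within the first decile, a setting chosen after seeing the data. That last setting was the only alternative confined to a single decile by significance value. The other settings, that of the best 3 deciles included, did not match the groups for rank. The first decile held 81.8% of all broad and 6.71% of all narrower peaks. In the second decile replicates 1, 2 and 3 overlapped 78.3%, 50% and 30% of broad peaks, against 85.5%, 54.1% and 34.1% of narrower ones. In the third decile the shares were 57.7%, 34.6% and 7.69% against 63.2%, 30.3% and 15.3%, higher for broad peaks in replicate 2 only. The share of broad peaks overlapped by at least 2 replicates, 83.4%, was 45.7% for midpoints, 44.4% with 50% of the bases covered, 65.4% with the better-ranked 50% of each replicate list and 95.03% at a width minimum of 2000 bp. With 1 replicate left out it was 61.7 to 76.1%, lowest without replicate 1, where both remaining lists must overlap. Width minimums of 1000, 1500 and 2000 bp gave 828, 296 and 161 broad peaks. At these minimums 16.0, 36.6 and 48.9% of broad peaks held 2 or more peaks of a replicate (mean over replicates, 23.2% at 1200 bp), and 32.2, 22.6 and 23.0% had another broad peak within the gap limit of 2 kb (27.3% at 1200 bp). The share with 2 or more replicate peaks was 12.4% with the better-ranked 50% of each replicate list, and the gap limits of 1 and 5 kb gave 19.7 and 40.3% for the neighbours.

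The result on chromosome X changed under many alternatives. Its excess in broad over narrower peaks, 6.36 points, was 7.04, 1.27 and -0.12 points at minimums of 1000, 1500 and 2000 bp. It was 0.24 with peaks weighted by bases and 1.53 among peaks of at least 2 replicates. It was 2.12 within the first decile and 0.26, 0.81 and 0.30 with the widths of the lists of replicates 1, 2 and 3, settings chosen after seeing the data. The central excess, 10.1 points, was positive under all alternatives, at 15.1 and 15.9 points at minimums of 1500 and 2000 bp, 7.40 weighted by bases, 5.77 among peaks of at least 2 replicates, and 6.86 and 2.99 in the lists of replicates 2 and 3. In the replicate lists it was 4.93 to 7.52 with 1 replicate left out and 4.36 at 2000 bp, where replicate 3 turned negative, with differences of 11.9, 2.65 and -1.47 points in replicates 1, 2 and 3 (exact permutation test, p = 0.5). Where no construction shows it, the cause was not tested. No paired analysis was possible between groups of samples because peak lists were analysed for the ChIP replicates only. Every test printed already set broad against narrower peaks within each replicate. Comparisons between replicates are limited by their unknown depth.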
